A study of Mus musculus with 6 samples.

Results

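Scavenger receptors are surface proteins that bind modified lipoproteins, microbes, dying cells and other polyanionic or unwanted particles and carry them into the cell. 8 genes of this group were examined, *Marco*, *Msr1*, *Scarb1*, *Stab1*, *Olr1*, *Colec12*, *Scarf1* and *Lrp1*, of the 40481 genes in the count table. They were chosen by name as receptors of the family. The rule takes no measured value, but earlier results of these data were known when the receptors were chosen. Of the 8, 7 passed the filter on low counts and were tested among 14778 genes. *Olr1* did not pass that filter and is given by its counts.

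The receptors are sorted into classes by the shape of the protein. Class A receptors (*Msr1*, *Marco*, *Colec12*) are trimers with a collagen-like stalk, class B receptors (*Scarb1*) cross the membrane at both ends, class E (*Olr1*) has a C-type lectin domain, class F (*Scarf1*) has repeats like those of epidermal growth factor, class H (*Stab1*) has fasciclin domains, and class L (*Lrp1*) is a giant member of a family of lipoprotein receptors. In macrophages these receptors are known for the uptake of modified low-density lipoprotein that turns the cells into foam cells, for the binding of bacteria that have not been coated by antibody, and for the clearance of apoptotic cells and of protease complexes.

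The cells were bone marrow-derived macrophages (BMDMs), unstimulated, grown from mouse marrow for 5 to 6 days in medium with 10% serum and 10% CMG-conditioned medium and then kept in 2% of the latter. Of 6 libraries of poly(A)-selected RNA, 3 came from wild-type and 3 from *Scd2-m/-m* macrophages, in which a floxed *Scd2*, the gene of a fatty acid desaturase, is deleted in myeloid cells by a Cre recombinase driven by the lysozyme M promoter. The study's methods used adult mice of both sexes, and nothing read here says that the libraries came from separate animals, so p-values measure the spread between these libraries, which may be technical. The deleted gene itself was at 66.9, 77.7 and 62.7 CPM (counts scaled to a common library size) in wild-type and at 59.5, 37.9 and 39.8 CPM in *Scd2-m/-m* libraries, a log2 fold change of -0.59 ± 0.20 (SE) that did not pass edgeR's quasi-likelihood test (FDR = 0.1), so *Scd2* was not shown to be lower here and directions below rest on the libraries' labels.

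A library held from 46285176 to 57629638 counts on genes. Libraries of one genotype differed by more than counting error in every pair. The macrophage markers were high in all 6 libraries, at a summed level of 38648 to 39711 CPM in wild-type against 22328 to 22929 CPM in *Scd2-m/-m* libraries over 10 genes. Of these 10, 6 were lower in *Scd2-m/-m* macrophages, among them *Lyz2*, *Csf1r* and *Adgre1*, and 1 was higher, *Cd68*. *Itgam*, *Fcgr1* and *Cd14* were not called, and the median log2 fold change of the 10 was -0.35. Most of the fall of the sum was that of *Lyz2*, the lysozyme M gene whose promoter drives the Cre, from 22742 ± 583 to 9025 ± 357 CPM (± SD, 3 libraries each). *Xist* was at 657 to 842 CPM in all 6 libraries, and *Ddx3y*, *Eif2s3y* and *Kdm5d* of the Y chromosome had no count in any, while *Uty* had 6, 0 and 5 counts in wild-type libraries and none in *Scd2-m/-m* libraries.

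The comparison of the genotypes asked which of these receptors had a different transcript level in macrophages labelled as lacking *Scd2*. Of the 7 tested receptors, 4 were lower in *Scd2-m/-m* macrophages (*Marco*, *Scarf1*, *Colec12* and *Stab1*) and none was higher. *Marco* fell to 30.8% of its wild-type mean, *Scarf1* to 67.1%, *Colec12* to 68.1% and *Stab1* to 79.2%. The calls are those of edgeR's quasi-likelihood test at an FDR below 0.05 over all genes tested, by which 7.84% of the 14778 genes were lower and 9.65% higher, or 17.5% in either direction. The median log2 fold change of the 7 receptors was -0.55, beside 0.0039 over all genes tested.

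With an absolute log2 fold change above 1 asked in addition, 1 receptor was lower, *Marco*, beside 0.528% of all genes tested (2.84% in either direction). None of the 7 passed the study's threshold of an absolute log2 fold change above 2, and 0.663% of all genes did. In these bulk libraries fewer cells of a type and less RNA per cell cannot be told apart, and this holds for every level given here.

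**Figure D1:**
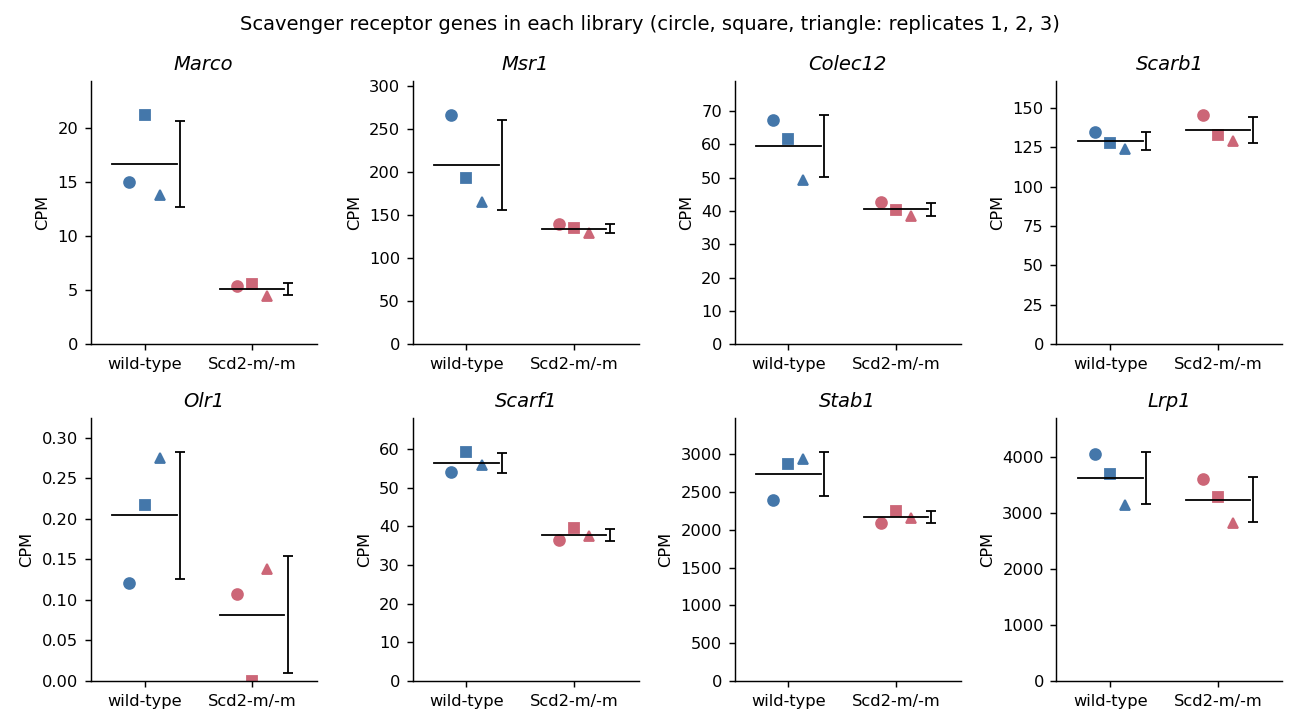
CPM of each of the 8 scavenger receptor genes (y axis, starting at 0, a scale of its own in each panel) in the 3 wild-type and 3 *Scd2-m/-m* libraries, with the mean and SD of each genotype; circles, squares and triangles are replicates 1, 2 and 3. Every *Scd2-m/-m* library lies below every wild-type library for *Marco*, *Msr1*, *Stab1*, *Colec12* and *Scarf1*, and the genotypes overlap for *Scarb1*, *Olr1* and *Lrp1*.

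The 300 bases around the transcription start (250 before and 50 after it) are shown for the receptor that fell most, *Marco*, for an abundant receptor that fell less, *Stab1*, and for the abundant receptor that was not called, *Lrp1*, from RefSeq on GRCm38.p6, each read 5′ to 3′ on its own strand, the minus strand of the chromosome. They lie at chr1:120504975-120505274, chr14:31168592-31168891 and chr10:127621099-127621398. Capitals mark a match to one of 6 motifs searched on both strands, AP-1 (TGANTCA), ETS (GAGGAA, the form bound by the macrophage factor encoded by *Spi1*), E-box (CACGTG), C/EBP (TTGCNNAA), the antioxidant response element (ARE, TGACNNNGC) and the TATA box (TATAAA).
Marco: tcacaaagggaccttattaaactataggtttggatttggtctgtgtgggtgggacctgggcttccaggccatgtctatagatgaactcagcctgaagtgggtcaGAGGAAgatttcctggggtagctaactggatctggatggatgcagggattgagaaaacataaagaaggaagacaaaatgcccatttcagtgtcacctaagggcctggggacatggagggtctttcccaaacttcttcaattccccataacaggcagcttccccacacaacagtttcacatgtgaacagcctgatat
Stab1: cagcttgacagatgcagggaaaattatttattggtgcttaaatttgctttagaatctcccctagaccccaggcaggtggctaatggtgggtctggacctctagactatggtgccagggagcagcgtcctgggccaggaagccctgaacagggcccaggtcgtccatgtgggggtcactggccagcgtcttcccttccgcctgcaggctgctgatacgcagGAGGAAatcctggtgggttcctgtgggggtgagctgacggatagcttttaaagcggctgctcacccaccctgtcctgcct
Lrp1: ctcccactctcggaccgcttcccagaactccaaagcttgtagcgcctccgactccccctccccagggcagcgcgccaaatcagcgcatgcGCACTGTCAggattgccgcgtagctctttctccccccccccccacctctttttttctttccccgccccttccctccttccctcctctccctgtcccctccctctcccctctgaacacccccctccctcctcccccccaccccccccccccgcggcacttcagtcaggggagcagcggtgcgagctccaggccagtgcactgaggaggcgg

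The *Marco* promoter held no CpG and a GC content of 47.3%, that of *Stab1* 7 CpG and 57.3%, and that of *Lrp1* 16 CpG and 67.7%, beside medians of 7 CpG and 52.7% over 32851 promoters of the same length. The ETS letters occurred in the *Marco* window, from position -146 relative to the start site, and in the *Stab1* window, from position -30, and 28.3% of all promoters hold them. In the *Lrp1* window the ARE letters occurred on the opposite strand at position -160, a match found in 12.4% of all promoters. No match to the other motifs lay in these 3 windows, and the shares of all promoters that hold them are 7.81% for AP-1, 7.15% for the E-box, 10.8% for C/EBP and 13.6% for the TATA box. The window of *Olr1*, which is not printed, held the ETS letters on the opposite strand at position -76 and the AP-1 letters at position -60. Windows of the remaining receptors were not at hand.

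Of the class A receptors, *Marco* and *Colec12* fell, and *Msr1* was lower in every *Scd2-m/-m* library without passing the test. *Marco* (ENSMUSG00000026390, GRCm38 chr1:120474538-120505024, minus strand) encodes a receptor that binds bacteria and inhaled particles. It was at 15.04, 21.2 and 13.8 CPM in the wild-type libraries, from 747, 978 and 704 counts. The values in *Scd2-m/-m* libraries were 5.37, 5.57 and 4.51 CPM, from 300, 280 and 262 counts. The genotypes were far apart, with the highest *Scd2-m/-m* library at 40.2% of the lowest wild-type library. The mean fell from 16.7 ± 3.94 to 5.15 ± 0.566 CPM (± SD, 3 libraries each), a log2 fold change of -1.70 ± 0.16 (SE) with a 95% interval of -2.04 to -1.35, and passed edgeR's test with an FDR of 2.42e-05. By size this was the 30th fall among the 14778 genes tested.

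*Colec12* (ENSMUSG00000036103, chromosome 18, plus strand) encodes a collectin with both a collagen-like stalk and a lectin domain. It was at 67.4, 61.7 and 49.4 CPM in wild-type libraries and at 42.6, 40.3 and 38.6 CPM in *Scd2-m/-m* libraries. The genotypes did not overlap, although the highest *Scd2-m/-m* library reached 86.3% of the lowest wild-type library. Its mean fell from 59.5 ± 9.21 to 40.5 ± 2.02 CPM (± SD, 3 libraries each), a log2 fold change of -0.55 ± 0.10 (SE) with an edgeR FDR of 0.00203.

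*Msr1* (ENSMUSG00000025044, chr8:39581685-39642673, minus strand) encodes the first macrophage receptor of the family to be described, which binds acetylated low-density lipoprotein. It was at 266, 193 and 165 CPM in wild-type libraries and at 140, 135 and 129 CPM in *Scd2-m/-m* libraries. The groups did not overlap, but the wild-type libraries spread over a 1.61-fold range and the *Scd2-m/-m* libraries over a 1.09-fold range. The log2 fold change was -0.63 ± 0.18 (SE), with a 95% interval of -1.06 to -0.20 and an edgeR FDR of 0.0597, so that *Msr1* did not pass the test although its estimate is as low as that of *Colec12*. Its call depended on the method and on which libraries were included. It passed in 6 of 16 alternative analyses, among them DESeq2 (-0.64, FDR = 0.0207), limma-voom (-0.60, FDR = 0.00793) and edgeR without wild-type replicate 1 (-0.41, FDR = 0.00125) or without wild-type replicate 3 (-0.77, FDR = 9.13e-04).

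Of the receptors of other classes, *Scarf1* and *Stab1* fell and *Scarb1* and *Lrp1* were not called. *Scarf1* (ENSMUSG00000038188, chr11:75513540-75526582, plus strand) encodes a receptor for acetylated low-density lipoprotein and for apoptotic cells. It was at 54.2, 59.3 and 55.9 CPM in wild-type and at 36.5, 39.5 and 37.5 CPM in *Scd2-m/-m* libraries. Its libraries lay close together within each genotype and far apart between them. The mean fell from 56.4 ± 2.60 to 37.9 ± 1.54 CPM (± SD, 3 libraries each), a log2 fold change of -0.58 ± 0.064 (SE) with a 95% interval of -0.71 to -0.44 and an edgeR FDR of 3.56e-05.

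*Stab1* (ENSMUSG00000042286, chr14:31139013-31168641, minus strand) encodes stabilin, which takes up secreted SPARC and modified lipoprotein and binds phosphatidylserine on dying cells. It was at 2401, 2869 and 2942 CPM in wild-type libraries and at 2095, 2254 and 2152 CPM in *Scd2-m/-m* libraries. The groups did not overlap but came close, with the highest *Scd2-m/-m* library at 93.9% of the lowest wild-type library. Its log2 fold change was -0.34 ± 0.081 (SE), with a 95% interval of -0.51 to -0.16 and an edgeR FDR of 0.0104. Without wild-type replicate 2 the fall was -0.30 and no longer passed (FDR = 0.0688). *Stab1* shares 112 exonic bases, 1.09% of its exonic length, with *Nt5dc2* on the opposite strand, and whether the counting used strand is not stated in the sources used here.

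*Scarb1* (ENSMUSG00000037936, chr5:125277087-125341094, minus strand) encodes the receptor for high-density lipoprotein. It was at 135, 128 and 124 CPM in wild-type and at 145, 133 and 129 CPM in *Scd2-m/-m* libraries. The groups overlapped. The log2 fold change of 0.075 ± 0.063 (SE) had a 95% interval of -0.060 to 0.21 and an edgeR FDR of 0.46. That interval leaves out falls of the size estimated for the 4 called receptors.

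*Lrp1* (ENSMUSG00000040249, chr10:127538161-127621148, minus strand) encodes an endocytic receptor for apolipoprotein E, protease and inhibitor complexes and calreticulin on dying cells. It was at 4052, 3690 and 3135 CPM in wild-type and at 3606, 3292 and 2813 CPM in *Scd2-m/-m* libraries. The groups overlapped, since the lowest wild-type library was below the 2 higher *Scd2-m/-m* libraries. Its log2 fold change was -0.16 ± 0.11 (SE), with a 95% interval of -0.39 to 0.065 and an edgeR FDR of 0.328, and so a fall of the size of that of *Stab1* lies inside its interval.

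*Olr1* (ENSMUSG00000030162, chr6:129485244-129507165, minus strand) encodes the lectin-like receptor for oxidized low-density lipoprotein, best known from endothelial cells. It had 6, 10 and 14 counts in wild-type and 6, 0 and 8 counts in *Scd2-m/-m* libraries. The groups overlapped at this depth. Summed over libraries these were 30 counts (exact 95% Poisson interval 20.2 to 42.8) and 14 counts (7.65 to 23.5), intervals that cover counting error only, and an exact two-sided permutation test of the CPM gave p = 0.2, with 0.1 the smallest p that 3 against 3 libraries allow.

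Counting non-overlap alone, 5 of the 7 tested receptors had every *Scd2-m/-m* library below every wild-type library, and none had every one above. Over all genes tested these shares were 17% and 17.9%, and 34.8% did not overlap in either direction.

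**Figure D2:**
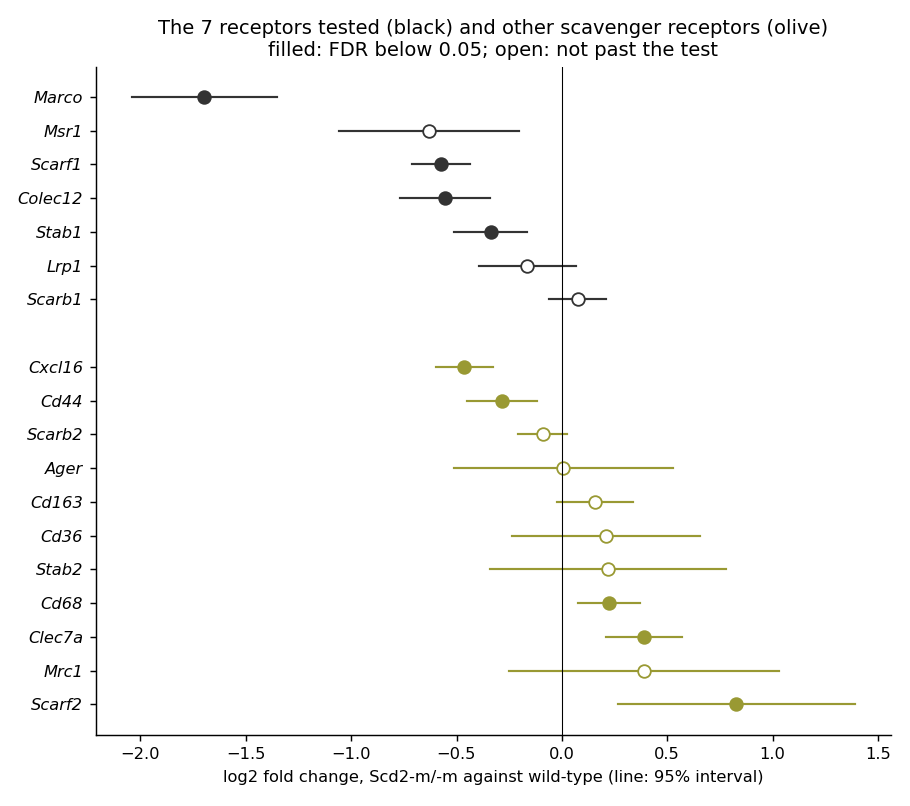
Log2 fold change of *Scd2-m/-m* against wild-type (x axis) with its 95% interval for the 7 tested scavenger receptor genes (black) and 11 other tested scavenger receptor genes (olive); filled points passed edgeR's test at an FDR below 0.05. *Marco* lies at -1.70, *Msr1*, *Scarf1* and *Colec12* between -0.63 and -0.55, *Stab1* at -0.34, and the intervals of *Lrp1* and *Scarb1* cross 0.

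Levels of different receptors were compared as CPM per kilobase of exons, with the exonic length taken from the GENCODE annotation of GRCm38. In wild-type macrophages *Stab1* (266 ± 28.6, SD, n = 3) and *Lrp1* (205 ± 26.1) stood well above the rest. They were followed by *Msr1* (32.8 ± 8.24), *Scarf1* (19.5 ± 0.899), *Scarb1* (15.2 ± 0.648), *Marco* (8.67 ± 2.05) and *Colec12* (6.82 ± 1.06), and *Olr1* was at 0.0572 ± 0.0218 CPM per kilobase. Of the neighbours in this order, *Marco* and *Colec12* overlapped between libraries, and *Stab1* at its lowest (233) was just above *Lrp1* at its highest (229).

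The order was different in *Scd2-m/-m* macrophages at 2 places. *Scarf1*, above *Scarb1* in wild-type macrophages, was below it at 13.1 ± 0.533 against 15.98 ± 0.986 CPM per kilobase (SD, n = 3), and *Marco*, which had overlapped *Colec12*, was below it at 2.67 ± 0.294 against 4.65 ± 0.231. Libraries of these pairs did not overlap within the *Scd2-m/-m* genotype. *Stab1* (211 ± 7.82) and *Lrp1* (183 ± 22.5) remained the highest, with *Msr1* at 21.2 ± 0.871 and *Colec12* and *Marco* the lowest of those tested. By the mean of this measure over all 6 libraries of both genotypes, *Stab1* was the 172nd and *Lrp1* the 217th highest of the 14778 genes tested. *Marco* was the 5966th.

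**Figure D3:**
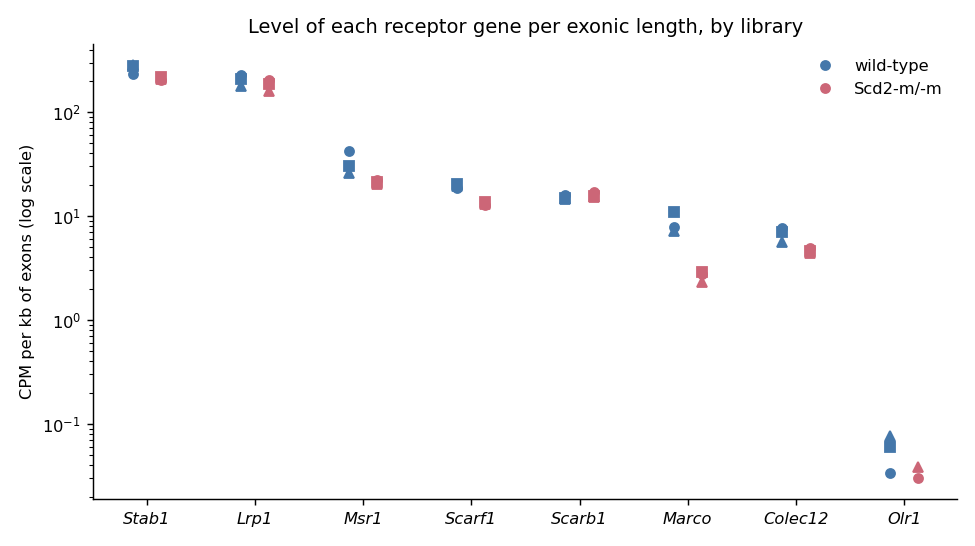
Level of each receptor gene in CPM per kilobase of exons (y axis, log scale) in the 3 wild-type and 3 *Scd2-m/-m* libraries. *Stab1* and *Lrp1* lie at 159 to 286 in all libraries, the other tested receptors at 2.34 to 41.9, and *Olr1*, with a library at 0 that a log axis cannot show, at 0.0771 or below.

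Summed over the 8 genes, the receptor level per kilobase was 554, 571 and 536 in the wild-type libraries and 467, 463 and 423 in the *Scd2-m/-m* libraries. The groups did not overlap, and the mean fell from 554 ± 17.7 to 451 ± 24.1 (± SD, 3 libraries each), which is given as a description without a test. *Stab1* and *Lrp1* made up most of this sum, 85.0 ± 1.52% in wild-type against 87.2 ± 0.306% in *Scd2-m/-m* libraries. The share of *Marco* in the sum went from 1.56% to 0.592%, that of *Msr1* from 5.92% to 4.70%, and that of *Scarb1* from 2.74% to 3.54%. As a share of the normalized library size that CPM uses, *Stab1* and *Lrp1* together held 0.636% in wild-type against 0.540% in *Scd2-m/-m* libraries.

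Ratios between receptors in the same library, from which library size cancels, asked whether they differed by different amounts. All 6 ratios of *Marco* to another tested receptor were lower in every *Scd2-m/-m* library than in every wild-type library, by 1.08 ± 0.29 (to *Msr1*) to 1.75 ± 0.21 (to *Scarb1*) on the log2 scale (± SE of the difference). The ratios among *Msr1*, *Colec12* and *Scarf1* overlapped between the genotypes, with log2 differences of -0.059 ± 0.10 (*Msr1* to *Colec12*), -0.026 ± 0.23 (*Msr1* to *Scarf1*) and 0.033 ± 0.16 (*Colec12* to *Scarf1*). *Scarb1* was higher in relation to each of the other 6 without overlap, from 0.24 ± 0.098 against *Lrp1* to 1.75 ± 0.21 against *Marco*. *Stab1* to *Lrp1* differed by -0.17 ± 0.22 and overlapped.

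With 3 libraries a group the exact two-sided permutation test gives no p below 0.1, and none below 0.14 after adjustment over the 21 pairs, so no pair could pass. For a background, the ratio of a tested receptor to any other tested gene did not overlap between genotypes in 59.9% of 103068 such ratios. Taken by receptor, the ratio was lower in every *Scd2-m/-m* library against 96.7% of other genes for *Marco*, 79.2% for *Scarf1*, 69.9% for *Msr1*, 68.5% for *Colec12*, 49.5% for *Stab1*, 16.2% for *Lrp1* and 10.3% for *Scarb1*. For *Scarb1* it was higher in every one against 22.7% of other genes. The 6 ratios of *Marco* to the other receptors are thus near its share among all genes.

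*Csf1r*, the receptor for the growth factor that macrophages are grown in, was itself lower in *Scd2-m/-m* macrophages, from 7028 ± 285 to 5411 ± 68.7 CPM (± SD, 3 libraries each; edgeR log2 fold change -0.38, FDR = 0.00158), and was taken as a second reference after its values had been seen. In relation to *Csf1r*, *Marco* was lower by 1.30 ± 0.20 on the log2 scale (± SE) and *Scarf1* by 0.20 ± 0.070, both without overlap, while *Scarb1* was higher by 0.45 ± 0.042 without overlap. The level of *Scarb1* itself was not called (log2 fold change 0.075, edgeR FDR = 0.46), beside -0.38 for *Csf1r*. The share of all genes tested whose ratio to *Csf1r* did not overlap is not given here. The ratios of *Colec12* (-0.17 ± 0.11), *Msr1* (-0.23 ± 0.17), *Stab1* (0.044 ± 0.13) and *Lrp1* (0.21 ± 0.12) overlapped between genotypes. Exact two-sided permutation tests gave p = 0.1 for the 3 that did not overlap, the smallest that the design allows, and 0.2 to 0.9 for the others.

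Calls went in both directions among another 16 scavenger receptor genes. Of these, 11 were tested, of which 3 were higher in *Scd2-m/-m* macrophages, 2 were lower and 6 were not called, with a median log2 fold change of 0.21. *Cxcl16*, a membrane chemokine that also binds oxidized lipoprotein, fell from 421 ± 19.6 to 306 ± 14.3 CPM (± SD, 3 libraries each; log2 fold change -0.46, edgeR FDR = 1.89e-04), and *Cd44*, the hyaluronan receptor, from 405 ± 46.9 to 332 ± 8.11 CPM (-0.29, FDR = 0.0202). *Clec7a*, the beta-glucan receptor, rose from 43.4 ± 2.33 to 56.7 ± 7.26 CPM (0.39, FDR = 0.0058), and *Cd68*, a lysosomal glycoprotein, from 2157 ± 56.3 to 2518 ± 162 CPM (0.22, FDR = 0.0379). *Scarf2*, the relative of *Scarf1*, rose from 1.06 ± 0.401 to 1.89 ± 0.0415 CPM (0.83, FDR = 0.0426).

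*Cd36*, the class B receptor that shares the uptake of oxidized lipoprotein with *Msr1*, was at 428 ± 102 and 494 ± 56.5 CPM (log2 fold change 0.21, FDR = 0.51) and was not called. Neither were *Mrc1*, the mannose receptor (0.39, FDR = 0.373), nor *Cd163*, the haptoglobin and haemoglobin receptor (0.16, FDR = 0.222).

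**Figure D4:**
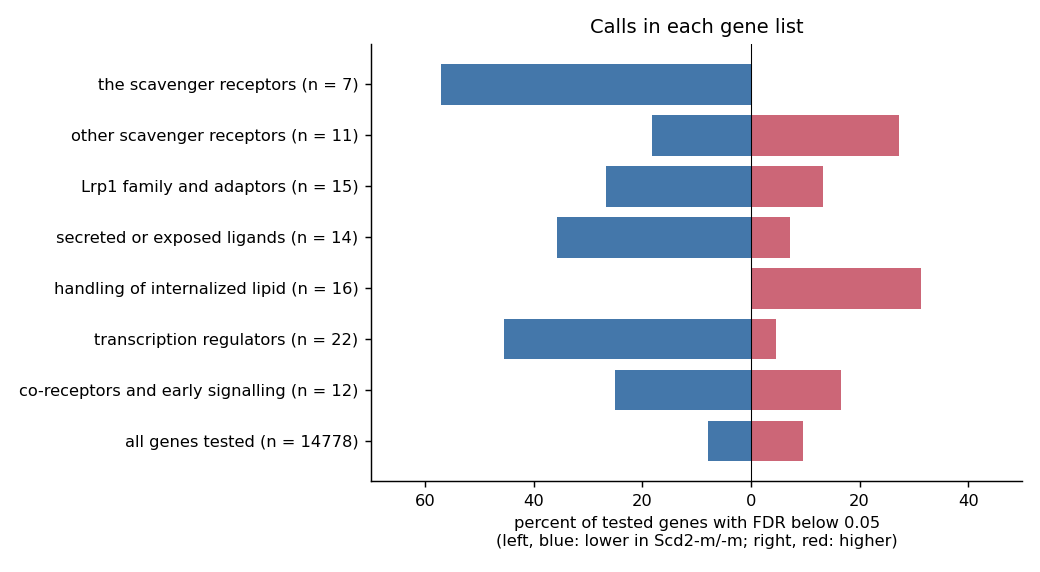
Percent of the tested genes of each list that were lower (left) or higher (right) in *Scd2-m/-m* macrophages at an edgeR FDR below 0.05, with the number tested beside each name. The scavenger receptors examined here have 4 of 7 genes on the left and none on the right, whereas the genes for handling of internalized lipid have 5 of 16 on the right and none on the left.

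*Lrp1* belongs to a family of lipoprotein receptors, and of 15 tested genes of that family and its adaptors 4 were lower and 2 higher. *Sorl1*, a sorting receptor, fell from 107 ± 8.37 to 66.2 ± 5.98 CPM (± SD, 3 libraries each; log2 fold change -0.69, edgeR FDR = 3.6e-05), and *Lrp5*, a Wnt co-receptor, from 105 ± 2.80 to 71.7 ± 6.19 CPM (-0.55, FDR = 7.9e-05). *Lrp12* rose from 52.7 ± 1.77 to 69.8 ± 1.17 CPM (0.40, FDR = 3.14e-04) and *Lrp4* from 12.4 ± 0.720 to 16.6 ± 0.621 CPM (0.42, FDR = 0.00311). *Lrpap1*, the chaperone of the family (-0.20, FDR = 0.102), did not pass. The median over the family was -0.18 on the log2 scale.

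Of 14 tested genes for secreted or exposed ligands of these receptors, 5 were lower and 1 was higher, with a median log2 fold change of -0.11. *Apoe*, the apolipoprotein that *Lrp1* binds, fell from 9969 ± 610 to 3503 ± 231 CPM (± SD, 3 libraries each; -1.51, edgeR FDR = 4.05e-08). *Thbs1*, a matrix protein cleared through *Lrp1*, fell from 426 ± 24.8 to 148 ± 11.1 CPM (-1.53, FDR = 1.15e-08), and *Mmp9*, a secreted protease, from 51.4 ± 9.17 to 16.7 ± 0.857 CPM (-1.62, FDR = 7.07e-06). *C1qa*, a subunit of the complement component that *Scarf1* binds on apoptotic cells, fell from 968 ± 73.7 to 701 ± 35.4 CPM (-0.47, FDR = 4.95e-04). These falls of *Apoe*, *Thbs1* and *Mmp9* were of the size of that of *Marco*.

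Among 16 genes for handling of lipid after uptake, 5 were higher and none was lower, with a median of 0.12 on the log2 scale. *Abcg1*, a cholesterol exporter, rose from 170 ± 11.1 to 280 ± 26.3 CPM (± SD, 3 libraries each; 0.72, edgeR FDR = 2.02e-05), and *Fabp4*, a fatty acid carrier, from 15.3 ± 3.22 to 23.2 ± 2.14 CPM (0.60, FDR = 0.0099). *Lamp2*, of the lysosomal membrane (0.35, FDR = 0.00191), and *Soat1*, which esterifies cholesterol (0.26, FDR = 0.00775), rose by less. The exporter *Abca1* was not called (-0.05, FDR = 0.714).

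Of 22 genes for transcription regulators of macrophages and of lipid metabolism, 10 were lower and 1 was higher, with a median log2 fold change of -0.17. *Rxra*, the partner of the lipid-sensing nuclear receptors, fell from 114 ± 1.39 to 69.4 ± 2.52 CPM (± SD, 3 libraries each; -0.72, edgeR FDR = 1.94e-06), *Cebpa* from 164 ± 9.44 to 113 ± 7.49 CPM (-0.54, FDR = 8.76e-05) and *Ets2* from 55.8 ± 2.66 to 39.3 ± 1.83 CPM (-0.51, FDR = 1.14e-04). Of 12 genes for co-receptors and early signalling, 3 were lower and 2 higher, with a median of -0.11. *Tlr2* (-0.40, FDR = 6.15e-04) and *Mertk*, which binds apoptotic cells through bridging proteins (-0.33, FDR = 0.00384), fell, and *Tlr4* (0.27, FDR = 0.0117) and the kinase *Fyn* (0.33, FDR = 0.00293) rose.

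Several of these receptors are also made by endothelial cells, for which *Stab1*, *Scarf1* and *Olr1* are known. Of 10 endothelial marker genes 5 were tested, of which *Vwf* alone was called and was higher, and the summed level was 51.4 to 55.3 CPM in wild-type against 77.9 to 95.8 CPM in *Scd2-m/-m* libraries. *Vwf* made up most of that sum, at 39.7 to 45.7 CPM in wild-type libraries and 64.7 to 83.2 CPM in the others. *Kdr* was at 6.86 to 7.11 and 8.26 to 9.13 CPM, lower in every wild-type library but not called (log2 fold change 0.29), and *Stab2* was at 1.61 to 3.93 and 3.11 to 3.54 CPM. The other 7, *Cdh5*, *Tek*, *Tie1*, *Emcn*, *Lyve1*, *Egfl7* and *Esam*, were each below 1 CPM in every library. Of 10 fibroblast and stromal markers 4 were tested and none was called, at a summed 4.39 to 7.59 and 5.62 to 5.95 CPM.

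Markers of other blood cell types, and genes of dividing cells, also differed between the genotypes. All 10 monocyte and progenitor markers were tested and 8 were higher, none lower, and their summed level was 85.4 to 107 CPM in wild-type against 238 to 299.9 CPM in *Scd2-m/-m* libraries. Of the 8, *Mki67*, *Top2a* and *Ccna2* are genes of the cell cycle, *Ly6c2*, *Ccr2*, *Plac8* and *Ly6a* are among the others, and the progenitor genes *Kit* and *Cd34* were not called. Of 10 neutrophil and granulocyte precursor markers 8 were tested and 5 were higher, at a summed 22.3 to 26.0 and 33.7 to 43.8 CPM. Of 8 dendritic cell markers 7 were tested and 2 were higher (3.04 to 4.64 and 4.22 to 5.52 CPM), and of 10 lymphoid and erythroid markers 4 were tested and 2 were higher (2.54 to 4.07 and 5.65 to 7.40 CPM). The part of these differences in the falls of *Marco*, *Scarf1*, *Colec12* and *Stab1* was not tested.

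The genes whose log2 CPM over the 6 libraries was most like that of each receptor were taken from 8192 tested genes with a mean of at least 10 CPM, with Pearson's r as a description over libraries that share a genotype within each group of 3. These were *Ewsr1*, *Kat5* and *Rapgef2* for *Marco*, *Nedd8*, *Taf8* and *Cpd* for *Msr1*, *Slc39a13*, *Tcf7l2* and *Mum1* for *Colec12*, *Rrbp1*, *Dgkh* and *Tshz1* for *Scarf1*, *Mob3c*, *Slc46a3* and *Nrf1* for *Stab1*, *C1d*, *Coro1c* and *AU040320* for *Scarb1*, and *Cdk20*, *Cyba* and *Pgrmc2* for *Lrp1*. No gene was named for more than 1 receptor, and r ran from 0.986 to 0.998. As many as 256 genes had r above 0.95 with *Marco*, 255 with *Scarf1*, 215 with *Colec12*, 150 with *Msr1*, 74 with *Stab1*, 59 with *Lrp1* and 35 with *Scarb1*.

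The calls of *Marco*, *Scarf1* and *Colec12* held in all 16 alternative analyses. Leaving out 1 library at a time moved their log2 fold changes to between -1.82 and -1.49, between -0.61 and -0.54 and between -0.67 and -0.45. *Stab1* passed in 15 of 16, at -0.42 to -0.28 with 1 library left out. *Lrp1* and *Scarb1* passed in none, and no receptor changed sign.

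**Figure D5:**
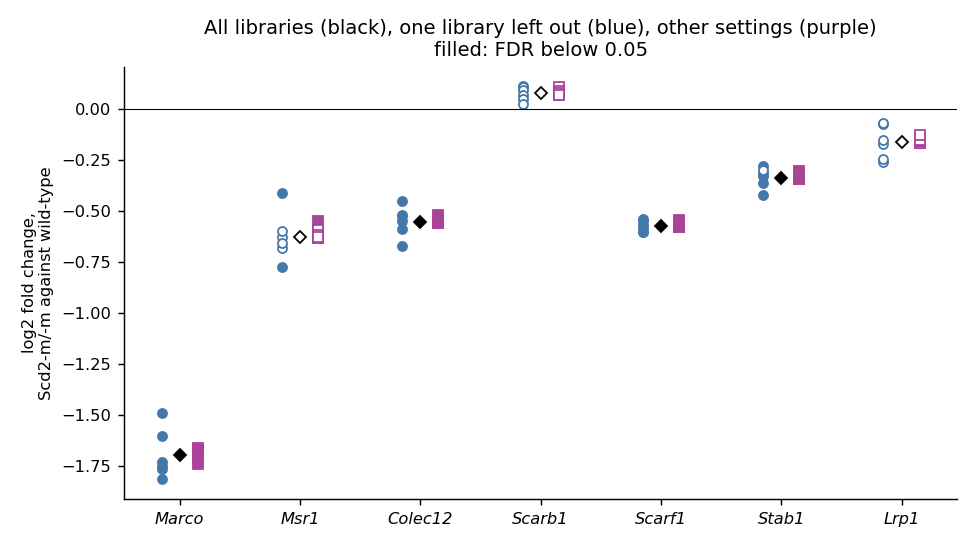
Log2 fold change of each tested receptor (y axis) with all libraries (black), with 1 library left out (blue) and under other settings (purple); filled points passed at an FDR below 0.05. *Marco*, *Scarf1* and *Colec12* are filled throughout, *Stab1* is open once, *Msr1* is filled in 6 of 16 alternatives, and every point of a receptor lies on the same side of 0.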

How the data were processed

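RNA of 3 wild-type and 3 *Scd2-m/-m* BMDM libraries was compared, grouped by the labels. The authors used STAR and the GRCm38 primary assembly of Ensembl and deposited raw counts per gene, as whole numbers. How reads were counted, and whether by strand, is not given in the sources read. Of counts from 1 to 20, 60.9% to 64.9% were even, and the meaning of 1 count is not stated. The authors' table of their own comparison (log2 fold changes, p-values and log2 CPM) was not used. After removal of 276 repeated entries of 40757, 40481 genes were left.

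The main test was edgeR 4.0.16 (filterByExpr, TMM factors from 0.979 to 1.02, robust glmQLFit, glmQLFTest) in R 4.3.3, with Benjamini-Hochberg FDR over 14778 genes and a threshold of 0.05. The same fit was also tried on simulated data. Alternatives included DESeq2 1.42.0 and limma 3.58.1. Depth was 46285176 to 57629638 counts, so that genes near 0.1 CPM rest on a few counts. Named genes were the 8 receptors, *Scd2*, other scavenger receptors past the test, up to 4 genes with the smallest p of each other list (some genes are not reported here), and the 3 genes most like each receptor. *Abca1*, *Cd36*, *Mrc1*, *Cd163*, *Lrpap1*, *Csf1r* and the markers named singly were added after their values were seen. The receptors and lists were chosen with earlier results of these data known.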

Additional observations from a re-analysis of the deposited data

How the results depend on the processing

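Of 112 recomputed log2 fold changes of the receptors, 105 kept their direction and their side of the threshold, 6 of *Msr1* passed where the main analysis did not, and 1 of *Stab1* no longer passed. None reversed. Normalization moved the median of all genes to at most 0.036 on the log2 scale. 4 receptors were called in the main analysis, 3 to 5 with 1 library left out, 1 with an absolute log2 fold change above 1 and 0 with one above 2. All 147 recomputed log2 ratio differences between receptors moved by less than the larger SD of a genotype in the main analysis. The sign was not kept in every setting for *Msr1* to *Stab1*, *Colec12* or *Scarf1*, nor for *Colec12* to *Scarf1*. These ratios overlapped between the genotypes in the main analysis. Of 21 pairs 0 passed in any setting, since the permutation test allowed no p low enough.

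Over all genes, 2585 were called in the main analysis (1426 higher, 1159 lower), 4507 by limma-voom with sample quality weights, 1331 at an FDR under 0.01, 420 with an absolute log2 fold change above 1 and 98 with one above 2. With 1 library left out the count ran from 1440 (without *Scd2-m/-m* replicate 2) to 2567, and was 1490 without wild-type replicate 2; the cause was not tested. With library totals only as the scaling, 1695 genes were higher and 895 lower.

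Replicate numbers are shared between the genotypes, and the sources read do not say whether they pair the libraries. Deviations of same-numbered libraries correlated at 0.104, -0.0544 and 0.0832 over all genes tested, which does not settle it. With the replicate block, 2974 genes were called against 2585 without it, among them 5 receptors, *Msr1* included (-0.60, FDR = 0.00239). The SE of each tested receptor was smaller with the block, as for *Lrp1* at 0.0586 against 0.105. Of other genes named, *Mrc1* (0.41, FDR = 3.23e-04) and *Cd14* (-0.26, FDR = 0.0171) passed with it as well. Depth limits *Olr1*, with 30 and 14 counts.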
